A study of Mus musculus with 2 samples.

Results

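A set of 35 genes of cholesterol and fatty acid synthesis was examined, chosen by name from the 23238 gene symbols of the series: the SREBP transcription factors with the proteins that hold or release them, the enzymes from acetyl-CoA to cholesterol, the enzymes that make, desaturate and elongate fatty acids, and a pair of sterol exporters. All 35 symbols had a single row. Naïve CD4+ T cells from spleens of wild-type (WT) female C57BL/6 mice aged 7 to 10 weeks were activated with antibodies to CD3ε and CD28 and kept for 1 day under Treg-inducing conditions, that is with TGF-β1, IL-2 and antibodies to IFN-γ and IL-4. The control culture received DMSO as vehicle. The other received 10 μM Tubastatin A (TSA), an inhibitor of the deacetylase HDAC6. RNA of each culture was sequenced as 1 library, so there was 1 library per condition, and no difference below has a replicate check. Whether cells of several mice were pooled is not given in the sources used here. A culture of this kind holds Foxp3+ cells beside activated T cells without Foxp3, and in such bulk RNA a lower share of cells that express a gene cannot be told apart from less RNA per cell.

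About 10846166 reads (control) and 10432628 reads (TSA) were recovered from the deposited values. A gene was examined further when either library held 10 or more of its reads, which left 12164 genes and 33 of the 35 members. Fads2 and Abca1 had fewer. The T cell label was checked against marker genes. Cd3d, Cd3e, Cd3g, Cd4, Lck and Cd28 summed to 13992 and 14625 reads in the control and TSA library, and the iTreg genes Foxp3, Il2ra, Ctla4 and Ikzf2 to 12057 and 9926 reads. Most of the iTreg sum came from Il2ra, with 8851 and 7511 reads. Foxp3 itself was lower in the TSA library, at 1633 and 965 reads (0.586-fold). Ctla4 had 1051 and 933 reads and Ikzf2 had 522 and 517. Genes of other cell types were rare. The sums were 80 and 87 reads for 2 CD8 genes, 13 and 27 for 5 B cell genes, 60 and 44 for 6 myeloid genes, 0 and 1 for 3 NK cell genes, 33 and 49 for 5 erythroid genes, and 0 and 7 for 4 adipocyte or hepatocyte genes.

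As background, SREBP proteins are transcription factors that are made as precursors in the membrane of the endoplasmic reticulum. When the membrane is poor in sterol, the escort protein SCAP carries them to the Golgi, where proteases free the active part. When sterol is plentiful, INSIG proteins hold SCAP back. SREBP-2, encoded by Srebf2, is known mainly for sterol synthesis genes, and SREBP-1, encoded by Srebf1, mainly for fatty acid synthesis genes. T cells switch this programme on after activation, since dividing cells need new membrane. Sterol exporters are under the control of the oxysterol receptors LXR and are usually high when the synthesis programme is low.

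Among the sterol and fatty acid synthesis genes, more were lower than higher in TSA-treated compared with control Treg cells. At any size, 21 of the 33 genes examined were lower, beside 48.6% of all genes examined, and 12 were higher. Of the 33, 15 were lower and 2 were higher by more than counting error, that is, the exact 95% interval of the fold change (TSA over control) did not include 1, and 16 were not distinguished from no change. The same rule marked 28.0% of all genes examined as lower and 28.1% as higher. Because the interval narrows with the number of reads, the count was repeated for genes with a mean normalised count of at least 100. There 15 of 30 members were lower and 1 was higher, beside 36.5% and 23.4% of all such genes, and 21 were lower at any size, beside 57.1%. The median log2 fold change was -0.15 for the 33 members and 0.015 for all genes examined, and -0.18 and -0.058 at a mean count of at least 100. Of the members, Scd1 passed the 2-fold threshold of the study as higher and none passed it as lower, beside 11.5% and 3.15% of all genes examined. At a mean count of at least 100, 0 of 30 members passed it in either direction, beside 1.48% of all such genes as higher and 1.31% as lower. In total, the 35 genes held 25101 normalised counts in control and 21692 in TSA-treated cells, a ratio of 0.864 (95% interval 0.849 to 0.880). These intervals cover counting error only, since each condition had 1 library. Copies made by PCR could not be told apart in the deposited values, and any that were counted would make the intervals too narrow.

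**Figure D1:**
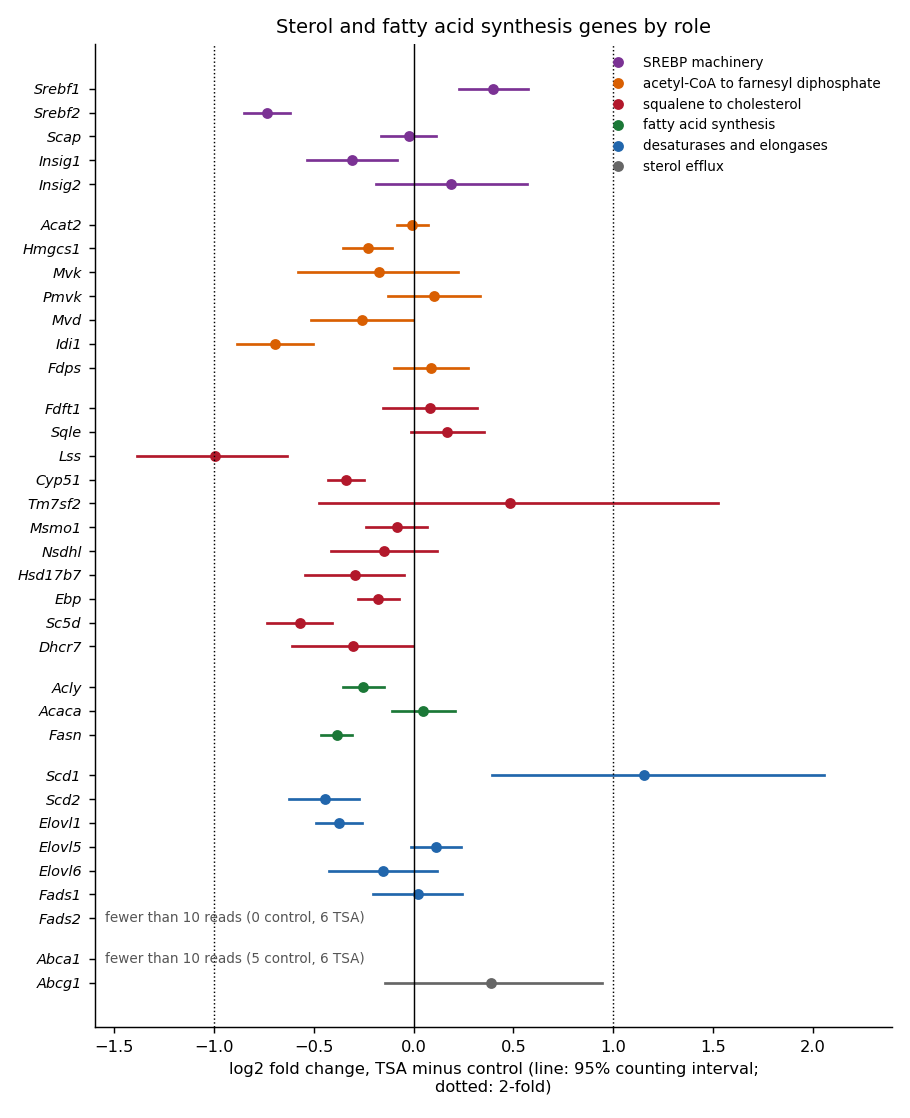
Log2 fold change (TSA minus control, x axis) of each member in the order of the pathway, coloured by role. Points are the deposited difference, lines are exact 95% intervals on the reads, and dotted lines mark 2-fold. Srebf2, Idi1, Lss and Sc5d lie farthest to the left, Scd1 lies past 2-fold to the right, and Srebf1 and Srebf2 lie on opposite sides of 0.

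Srebf1 and Srebf2 differed in opposite directions. Srebf2 had 1587 normalised counts in control and 953 in TSA-treated cells, and its fold change was 0.601 (95% interval 0.554 to 0.651). Only 5.48% of the genes examined had a lower fold change. Srebf1 had 482 and 637 normalised counts, which is 1.32-fold (1.17 to 1.49), and 75.3% of the genes examined had a lower fold change. The ratio of Srebf1 to Srebf2 reads within a library, which does not depend on the scaling between libraries, was 0.304 in control and 0.668 in TSA-treated cells, a change of 2.20-fold (1.90 to 2.54). In GENCODE M21 on GRCm38, the build named mm10 in the submitters' processing notes, Srebf2 lies on chromosome 15 from 82147181 to 82205379 and Srebf1 on chromosome 11 from 60199089 to 60222581. The end of Srebf1 overlaps exons of Rai1, a gene of the opposite strand that was higher as well, with 376 and 493 normalised counts and a fold change of 1.31. Whether reads were counted by strand is not given in the sources used here, so reads of the 2 genes may not be told apart, and the part of Rai1 in the Srebf1 value was not tested.

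The members that control the release of SREBPs are Scap, Insig1 and Insig2. Scap, the escort, had 879 and 864 normalised counts, a fold change of 0.982 (0.893 to 1.08), so that no difference was detectable at this depth, and its point value moved above 1 under scaling by total reads. Insig1, which is itself a target of SREBPs, was lower, with 366 and 296 normalised counts and a fold change of 0.808 (0.691 to 0.944), though its interval reached 1 under scaling by total reads without the ribosomal RNA precursor. The interval of Insig2, a second retention protein, included 1 at 113 and 128 normalised counts (0.879 to 1.48). Within a library there were 3.25 Insig1 reads for each Insig2 read in the control culture and 2.30 in the TSA culture, a change of 0.709-fold (0.521 to 0.963). Of these 5 genes of the SREBP machinery, 2 were thus lower, 1 was higher and 2 were not distinguished from no change, beside the 28.0% lower and 28.1% higher of all genes examined. At a mean normalised count of at least 100, 36.5% of all such genes were lower and 23.4% higher. The sum over the 5 genes was 3427 and 2878 normalised counts, a ratio of 0.840, and it rested on Srebf2, since without that gene the ratio was 1.05.

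Among the 7 enzymes from acetyl-CoA to farnesyl diphosphate, the shared trunk of sterol and isoprenoid synthesis, 3 were lower and none was higher by more than counting error, beside the same 28.0% and 28.1%. Of all genes with a mean normalised count of at least 100, 36.5% were lower and 23.4% higher. Idi1, the isomerase that makes the allylic building block of isoprenoids, had the lowest value of the group, with 593 and 366 normalised counts and a fold change of 0.618 (0.541 to 0.705). Hmgcs1, which makes HMG-CoA, had 1157 and 986 normalised counts, a fold change of 0.853 (0.782 to 0.929). Mvd, the decarboxylase that yields isopentenyl diphosphate, was just past counting error, with 281 and 235 normalised counts and an interval of 0.699 to 0.996, and its interval included 1 under scaling by total reads. The most abundant gene of this group by reads was Acat2, the thiolase of the opening step, and its level was nearly the same in both libraries, at 2613 and 2600 normalised counts (fold change 0.995, 0.942 to 1.05). Its close relative Acat3, from which reads may be hard to separate, had 3901 and 3752 normalised counts. The kinases Mvk (113 and 99.5 normalised counts, 0.668 to 1.17) and Pmvk (298 and 320, 0.914 to 1.26) and the synthase Fdps (463 and 493, 0.935 to 1.21) had intervals that included 1. Fdps overlaps Gm43738, an annotated gene of the same strand that was not analysed here, and the part of that overlap in the Fdps value was not tested. The median log2 fold change of the 7 genes was -0.18, and their summed level went from 5518 to 5100 normalised counts, a ratio of 0.924 (0.890 to 0.960), or 0.860 without Acat2.

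In the 11 enzymes that lead from farnesyl diphosphate through squalene to cholesterol, 6 were lower and none was higher by more than counting error, beside 28.0% and 28.1% of all genes examined. Of all genes with a mean normalised count of at least 100, 36.5% were lower and 23.4% higher. The largest difference was that of Lss, lanosterol synthase, which folds squalene epoxide into the first sterol. Its level was 180 normalised counts in control and 89.6 in TSA-treated cells, or 0.501-fold (0.382 to 0.645). With a log2 fold change of -0.998 it stayed just inside 2-fold, and it crossed to -1.0004 with scaling by the median of ratios. Sc5d, a sterol desaturase near the end of the pathway, followed with 776 and 521 normalised counts, a fold change of 0.673 (0.600 to 0.752). Of all genes examined, 3.15% had a lower fold change than Lss and 8.59% a lower one than Sc5d.

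Cyp51, the lanosterol demethylase, had the most reads of this stretch, and was lower at 2289 and 1808 normalised counts, a fold change of 0.790 (0.743 to 0.841). Ebp, a sterol isomerase, was lower by a smaller amount (1608 and 1422 normalised counts, 0.823 to 0.950). Hsd17b7, a sterol ketoreductase, had 306 and 249 normalised counts (0.686 to 0.966), and Dhcr7, the last reductase of a branch of the pathway, had 204 and 165 (0.656 to 0.999). With the libraries scaled by total reads, the intervals of Hsd17b7 and Dhcr7 included 1. That of Ebp did so when Rn45s, the ribosomal RNA precursor, was also left out of the totals.

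The intervals of the enzymes that make and oxidise squalene did not overlap that of Lss. Fdft1, squalene synthase, had 296 and 312 normalised counts (0.899 to 1.24), and Sqle, squalene epoxidase, had 469 and 527 (0.990 to 1.28). The interval of Sqle lay above 1 under scaling by total reads. Msmo1, the methylsterol oxidase, had 716 and 675 normalised counts (0.848 to 1.05), and Nsdhl, which acts with it in removing methyl groups, had 251 and 227 (0.751 to 1.08). Tm7sf2, a sterol reductase, rested on 16 and 23 reads, and its interval of 0.720 to 2.88 allowed a higher as well as a lower level. The median log2 fold change of the 11 genes was -0.18. Their summed level was 7109 normalised counts in the control and 6019 in the TSA library, a ratio of 0.847 (0.818 to 0.876), and the ratio without Cyp51 was 0.874. Of these genes, 2 overlap a gene of the opposite strand at their end: Cyp51 overlaps Akap9, whose fold change was 0.995, and Fdft1 overlaps Ctsb, whose fold change was 1.12. Their part in the values was not tested.

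**Figure D2:**
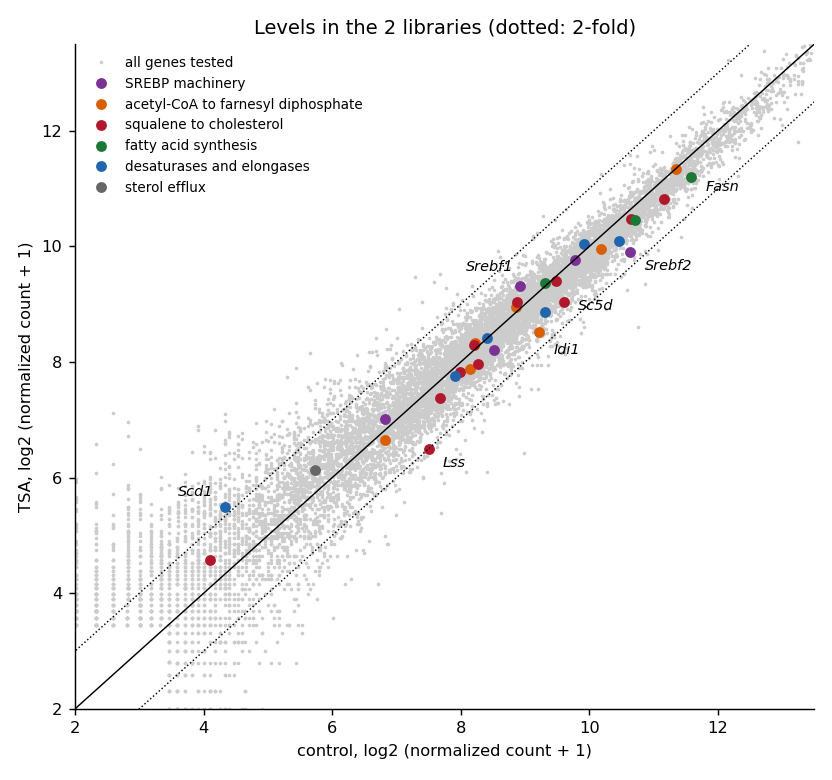
Deposited level of each gene in the control library (x axis) and in the TSA library (y axis), both as log2 of the normalised count plus 1. Grey points are the 12164 genes examined and coloured points the 33 members by role; the solid line marks equal levels and dotted lines mark 2-fold. Most members lie at or just below the solid line, Lss lies on the lower dotted line and Scd1 above the upper one.

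Genes of this pathway are known as targets of SREBPs, which act together with the factors NF-Y and Sp1, and the start regions of the members were therefore examined for letters that these factors bind. RefSeq windows of GRCm38.p6, from 250 bases before to 50 bases after a gene's start, were at hand for 28 of the 35 members. The SREBP consensus TCACNCCAC, searched on both strands, was found in the window of 1 member, Hmgcs1, and in 1.24% of all 32851 windows. A shorter form without the last base, TCACNCCA, which was searched after the letters had been seen and is contained in the first, was found for Hmgcs1, Srebf2 and Msmo1, and in 4.36% of all windows. The NF-Y box CCAAT was present for 22 of 28 members (78.6%), beside 43.1% of the examined genes that had a window. GGGCGG, the Sp1 box, was present for 23 of 28 (82.1%), beside 68.4%. These matches are descriptions of letters and not evidence of binding.

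Bases before the start are given for Hmgcs1, because it holds the full consensus, and for Lss and Srebf2, because their values were the lowest among members with 1 window and a mean normalised count of at least 100. The last 2 were chosen after their values were seen. The GENCODE gene of Lss begins 17 bases, and that of Srebf2 88 bases, ahead of the RefSeq start, and each stretch ends before the earlier of the 2 starts. Capitals mark the SREBP letters (full or short form) and the NF-Y box, which reads ATTGG where it lies on the other strand. The stretches are on the plus strand, at chr13:119690101-119690350 (Hmgcs1), chr10:76531355-76531587 (Lss) and chr15:82147019-82147180 (Srebf2).
Hmgcs1: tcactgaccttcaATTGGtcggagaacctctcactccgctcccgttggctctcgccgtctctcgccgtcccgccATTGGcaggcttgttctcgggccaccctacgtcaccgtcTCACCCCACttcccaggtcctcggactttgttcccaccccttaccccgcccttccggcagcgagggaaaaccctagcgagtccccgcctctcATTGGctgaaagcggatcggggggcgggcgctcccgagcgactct
Lss: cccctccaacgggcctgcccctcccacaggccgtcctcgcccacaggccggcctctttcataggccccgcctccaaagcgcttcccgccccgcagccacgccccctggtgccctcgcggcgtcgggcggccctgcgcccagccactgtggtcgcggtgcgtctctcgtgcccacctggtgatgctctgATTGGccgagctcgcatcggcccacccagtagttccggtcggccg
Srebf2: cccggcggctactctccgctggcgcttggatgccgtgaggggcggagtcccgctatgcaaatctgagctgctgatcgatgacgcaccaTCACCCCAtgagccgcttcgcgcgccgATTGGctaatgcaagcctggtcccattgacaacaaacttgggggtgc
Hmgcs1 held 3 NF-Y boxes in this stretch, with the SREBP consensus starting 137 bases before the RefSeq start. Lss held 1 NF-Y box, 62 bases before its RefSeq start. In Srebf2 the short SREBP form, at 162 bases, lay ahead of 1 NF-Y box at 135 bases. The window of Idi1, the next lowest member, held 2 NF-Y boxes, at 45 and 14 bases before the RefSeq start, but the GENCODE gene begins 105 bases ahead of that start, so both boxes lie inside it, and its bases are not given.

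Of the 3 enzymes of fatty acid synthesis, 2 were lower and none was higher, beside 28.0% and 28.1% of all genes examined. The shares were 36.5% and 23.4% of all genes with a mean normalised count of at least 100. Fasn, fatty acid synthase, had 3073 and 2353 normalised counts, a fold change of 0.766 (0.725 to 0.808). Acly, which splits citrate to supply acetyl-CoA in the cytosol, had 1672 and 1402, a fold change of 0.839 (0.781 to 0.901). Acaca, the carboxylase that makes malonyl-CoA, was not distinguished from no change at 635 and 657 normalised counts (1.03, 0.926 to 1.16). Summed, the 3 genes went from 5380 to 4412 normalised counts, a ratio of 0.820 (0.788 to 0.854). Without Fasn the ratio was 0.893. The interval with Fasn overlapped those of the SREBP machinery (0.799 to 0.883), of the enzymes from squalene to cholesterol (0.818 to 0.876) and of the desaturases and elongases (0.847 to 0.932). It lay below that of the enzymes from acetyl-CoA to farnesyl diphosphate (0.890 to 0.960). Fasn lies on chromosome 11 from 120805846 to 120824547.

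The desaturases that place the first double bond into saturated fatty acids differed in opposite directions. Scd2 had 632 and 464 normalised counts, a fold change of 0.734 (0.649 to 0.828). Scd1, best known from liver and fat tissue, had 19 and 44 reads. At 2.23-fold (1.31 to 4.16) it was the member that passed 2-fold, and 90.0% of the genes examined had a lower fold change. It was no longer counted when a mean normalised count of at least 50 was required, and its interval also held values under 2. The ratio of Scd1 to Scd2 reads was 0.0302 in the control and 0.0944 in the TSA library, a change of 3.12-fold (1.76 to 5.74). Both genes lie on chromosome 19, Scd2 from 44293674 to 44306864 and Scd1 from 44394455 to 44407879. Among their relatives, Scd3 had 1 read in the control and 12 in the TSA library, and Scd4 had none in either. How many reads the similar Scd genes share was not tested.

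Elongases extend the chain. Elovl1, which makes very long saturated chains, was lower, with 1414 and 1092 normalised counts and a fold change of 0.772 (0.713 to 0.836). Its end overlaps Cdc20, a cell division gene of the opposite strand that had 671 and 327 normalised counts and passed 2-fold as lower (0.488), and its part in the Elovl1 value was not tested. Elovl5, which elongates polyunsaturated chains, had 968 and 1046 normalised counts (0.989 to 1.18), and its interval lay above 1 under scaling by total reads. Elovl6, which takes palmitate to stearate, had 240 and 216 (0.745 to 1.09). Fads1, a desaturase of polyunsaturated fatty acids, was nearly the same in both libraries, with 337 and 341 normalised counts (0.870 to 1.18). Its neighbour on chromosome 19, Fads2, had 0 reads in control and 6 in TSA-treated cells. With the control library set at a floor of 3 reads the ratio of Fads2 was 1.98, but the exact interval of 0 and 6 reads reached down to 1.17, and these reads were too few to be examined further. Of the 6 genes of this group with enough reads, 2 were lower, 1 was higher and 3 were not distinguished from no change, beside the 28.0% lower and 28.1% higher of all genes examined. At a mean normalised count of at least 100, 36.5% of all such genes were lower and 23.4% higher. The ratio of the summed level of the group was 0.889, or 0.964 without Elovl1.

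For neither sterol exporter was a difference detectable. Abca1 had 5 and 6 reads, and this depth could not show a change. Abcg1, which passes cholesterol to high-density lipoprotein, had 52 and 69 reads, which is 1.31-fold with an interval of 0.904 to 1.92 that included 1.

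**Figure D3:**
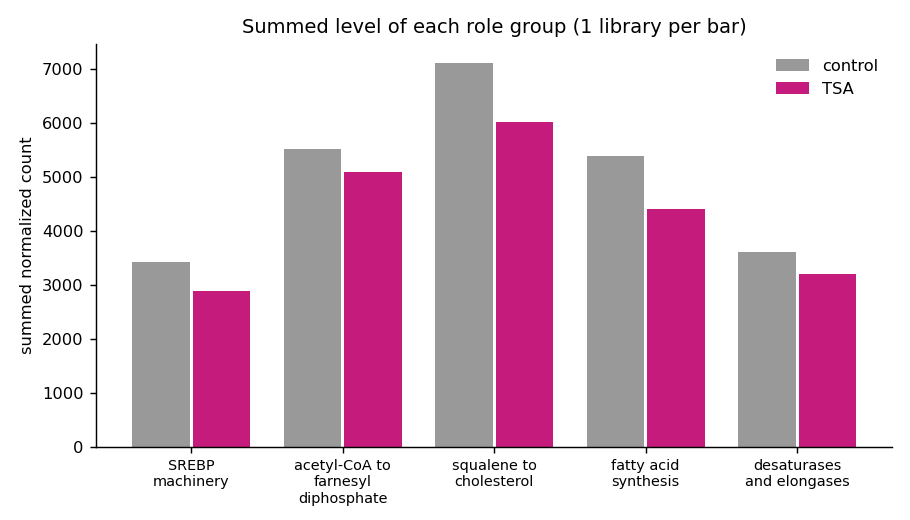
Summed normalised count (y axis, from 0) of the members of each role group in the control library (grey) and the TSA library (pink), with 1 library per bar and therefore no error bars. Each group was lower in the TSA library, with ratios from 0.820 for fatty acid synthesis to 0.924 for the enzymes from acetyl-CoA to farnesyl diphosphate; without the most abundant gene of each group the ratios were 0.860 to 0.964, except for the SREBP machinery (1.05). The sterol exporters, with 57 and 75 reads, are left out.

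In a wider list of pathway genes, as many were lower as were higher. The list held 45 other genes of SREBP processing, sterol and isoprenoid synthesis, sterol handling, and fatty acid supply and activation, of which 44 were matched and 39 had enough reads. Their median log2 fold change was 0.029, with 8 genes lower, 8 higher and 23 not distinguished from no change, beside the 28.0% lower and 28.1% higher of all genes examined. Past 2-fold as higher, beside 11.5% of all genes examined, were 2 genes of the 39 and none as lower. They were Pdss2, which helps to make the side chain of ubiquinone, with 11 and 27 reads (2.31, 1.17 to 5.43), and Acacb, a carboxylase tied to fatty acid oxidation, with 7 and 17 reads and an interval of 0.948 to 6.86. The 10 genes of sterol uptake, esterification and handling had a median of 0.14 among the 8 that could be examined, with 3 higher and 1 lower. For the 7 other genes of SREBP processing the median was 0.029, with 1 gene in each direction, of which the higher was Mbtps2, a protease that frees SREBPs (1.57, 1.20 to 2.06). The 8 examined genes of other sterol and isoprenoid branches had a median of -0.031, with 3 higher and 2 lower, and the 16 of fatty acid supply, elongation and activation a median of -0.0080, with 1 higher and 4 lower.

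**Figure D4:**
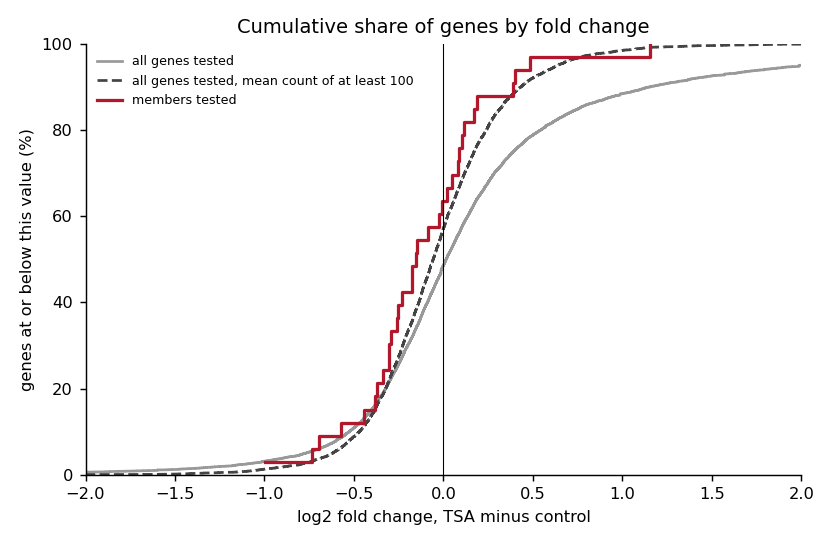
Share of genes (y axis, percent) with a log2 fold change (TSA minus control) at or below the value on the x axis, for the 33 members (red), all 12164 genes examined (grey) and those with a mean normalised count of at least 100 (dashed). The red curve lies to the left of the others around 0, where 21 of 33 members but 48.6% of all genes examined were lower at any size, and runs close to them below -0.5.

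Within the pathway, the lower level was not found at every step. Of the 18 enzymes from acetyl-CoA to cholesterol, 9 were lower by more than counting error, with none higher, beside 28.0% and 28.1% of all genes examined. The shares were 36.5% and 23.4% of all genes with a mean normalised count of at least 100. Fold changes of the 18 enzymes ranged from 0.501 for Lss to 1.40 for Tm7sf2. Neighbouring steps could differ: the interval of Idi1 lay below that of Fdps, the next enzyme, with the overlap of Fdps with Gm43738 not tested, and the interval of Lss below those of Fdft1 and Sqle, the enzymes before it. Scaling by total reads moved log2 fold changes up by 0.070. Then 12 members were lower and 4 higher by more than counting error, beside 21.6% and 33.7% of all genes examined.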

How the data were processed

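The authors made QuantSeq libraries, which sequence transcripts next to the poly(A) tail, so values were not scaled by length, and sequenced single-end 75-nt reads. The submitters' processing notes name Bowtie2, bedtools and mm10 without versions, and the methods name ExDEGA. The normalisation, annotation and use of strand are not given in the sources used here. The deposited values are log2 of a normalised count plus 1, with 3 decimals, in 23282 rows. Taken back from log2, they fell on steps of 1.005 (control) and 0.995 (TSA) per read. Of values of up to 300 reads, 99.95% and 99.94% lay within 0.1 of a whole read. Above a normalised count of 1442, the decimals do not fix the read exactly. In the control library, 1940 rows listed slightly above 0 were read as 0 reads.

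The fold change is the deposited TSA value minus the control value, which keeps the pseudocount of 1 and understates changes of low genes. With 1 library per condition no test was made and no p-value computed. Genes with at least 10 reads in a library were examined. Exact Clopper-Pearson 95% intervals were computed on the reads; they compare the libraries, not the conditions. Changes of within-library ratios, chosen after values were seen, are conditional odds ratios with exact intervals. The 35 genes and the lists were chosen with earlier results of these data known. All 35 are named; of the wider list those past 2-fold are named. Cdc20, Rai1, Akap9, Ctsb, Acat3, Scd3, Scd4 and Rn45s were named after their values were seen. A planned comparison of paralog proteins was not run, since no protein sequences were at hand. Steps were tested on simulated data. Alternatives covered scaling, pseudocount, filters, threshold and interval. The computations used matplotlib 3.10.9, pandas 2.3.3, scipy 1.17.1 and numpy 2.4.6 under Python 3.11.15.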

Additional observations from a re-analysis of the deposited data

How the results depend on the processing

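No paired analysis was possible because each condition had a single library, and none could be left out. The median log2 fold change of the members stayed negative under all alternatives, between -0.18 and -0.069. The medians of 2 role groups were near 0 and changed sign. That of the SREBP machinery (-0.026) was 0.044, 0.059 and 0.017 when scaled by total reads, by total reads without Rn45s and by the upper quartile. That of the desaturases and elongases (-0.067) was 0.0035 and 0.018 with the first 2 of these scalings and 0.020 without a filter. Higher members by more than counting error numbered 4 when scaled by total reads, by total reads without Rn45s or by the upper quartile, and 1 at a mean count of at least 50; lower members numbered 10 to 15. For 2-fold, 1 member (Lss) was lower with median-of-ratios scaling or a pseudocount of 0.1, and 3 were lower at 1.5-fold. Higher members past 2-fold were 2 without a filter, and 0 at a mean count of at least 50 or with the whole interval beyond 2-fold. Of the wider list, 1 gene was lower without a filter, 1 was higher with 10 reads in both libraries, 0 at a mean count of at least 50, and 5 were higher and 3 lower at 1.5-fold. Of 231 alternative values of single members, 2 left their interval, both with total reads without Rn45s: Acat2 (0.078 on the log2 scale) and Fasn (-0.30). Acat2 and Scap changed sign.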
